A study of Gallus gallus with 18 samples.

Results

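The cerebral cortex of unheated chickens was compared with liver and leg muscle of unheated birds on 9 Affymetrix chicken arrays, 3 per tissue, out of the 18 arrays of the series. The arrays were chosen by their labels alone (time label T0, birds kept at 28 ± 1 °C). In the study 24 birds, 12 male and 12 female, had been kept at 28 ± 1 °C for 8 days with free access to food and water. The labels do not give their age. They were then divided into this control and a group held at 40 ± 1 °C for 3 h (time label T3, the other 9 arrays). The labels call the samples biological replicates of brain (cerebral cortex), liver and leg muscle. They do not name the breed, the bird or sex behind an array, or whether several birds were pooled, so the spread below is that between these arrays. The 3 markers set for the cerebral cortex were SNAP25 and STMN2 of neurons and SIX3 of the forebrain. They were high on every brain array and low on each liver and muscle array. The markers were chosen with earlier results of these data known, so their values are not an independent check of the labels.

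As background, the cerebral cortex is built of excitatory neurons that release glutamate, inhibitory neurons that release GABA, and glia: astrocytes, oligodendrocytes that make myelin, and microglia. Neurons carry a set of transcripts that other tissues hardly use, for vesicle fusion, ion channels, receptors, axonal filaments and peptides. Brain tissue burns mainly glucose. It leaves fatty acid oxidation and amino acid breakdown largely to liver and muscle, and plasma protein secretion largely to liver.

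Values are probe set intensities, quantile normalized over the 9 arrays, so that equal ranks share 1 value, and analysed as log2(intensity + 16). Before that step the median of an array was 80.7 to 82.7 among the liver arrays, 82.4 to 85.9 for muscle and 91.4 to 98.7 for brain. Arrays of one tissue correlated at 0.976 to 0.993 over all probe sets and arrays of different tissues at 0.718 to 0.831. The bacterial trp control probe sets, which no chicken transcript should match, read from 6.73 to 72.7 as deposited, and values in that range are treated here as background. Over the 24 of 28 hepatocyte markers that reached an intensity of 500 in liver, the median level on the muscle arrays was 5.0%, 2.43% and 1.37% of that in liver, and on the brain arrays 0.610 to 0.670%. Over 24 of 26 skeletal muscle markers chosen the same way the median was 0.734 to 0.771% of the muscle level in brain and 1.12 to 1.15% in liver. Over 11 of 13 neuron markers it was 1.17 to 1.36% of the brain level in liver and 1.27 to 1.64% in muscle. As a sign of RNA quality, EEF1A read 1.21 to 2.30 times higher at its 3' end than at its 5' end, 1.47 to 1.56 times on the brain arrays and most on muscle array 3. Because these are bulk tissue samples, fewer cells of a type and less RNA per cell cannot be told apart.

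The brain-high genes included 12 of 13 neuron markers, 20 of 28 forebrain transcription factors and 11 of 17 astrocyte markers. The brain-low genes included 9 of 28 genes of fatty acid oxidation, 13 of 51 matrix genes and 6 of 15 microglia and macrophage markers. A probe set was called brain-high when each of its 3 brain values lay above all 6 liver and muscle values, it was at least 2-fold higher than in each of the other tissues, and limma gave an adjusted p under 0.05 against both. Brain-low calls followed the reverse rule. Of 38439 probe sets, 3940 were brain-high (10.3%) and 1746 brain-low (4.54%). With 1 probe set per gene, 1453 of 13009 genes were brain-high (11.2%) and 852 brain-low (6.55%), and these shares are the background for every count below. An adjusted p under 0.05 alone was common, at 68.8% of genes against liver and 67.0% against muscle, so the fold and the separation of the arrays were the stricter conditions. The median difference over all genes was -0.12 from liver and -0.13 from muscle, and with the deposited scaling kept it was +0.04 and +0.05. With that scaling brain-high genes made up 73.4% of calls (1768 higher, 640 lower), against 63.0% after quantile normalization. Large differences leaned to the higher side: 312 brain-high and 39 brain-low genes differed by at least 3 on the log2 scale from both tissues, and 66 and 3 genes by at least 5. The counts are not like for like, since a brain-low gene must be higher in both liver and muscle. Genes high in only 1 of these tissues are left out of the brain-low side.

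The limit of 2-fold cuts through a continuous range. GLIS1 (+1.00 and +1.00) and CCDC17 (+1.00 and +1.07) lay just inside the brain-high side, and OLAH (+1.00 and +1.19, the smaller value being 0.998) and WDPCP (+1.07 and +1.00, the smaller 0.998) just outside. On the brain-low side SELENBP1 (-2.67 and -1.0) and MRPL44 (-1.0 and -1.18) lay just inside, and ZDHHC6 (-1.20 and -1.0, the smaller -0.997) and GLB1 (-1.5 and -1.0, the smaller -0.997) just outside. Liver and muscle levels lay within 4-fold of each other for 1389 of the brain-high genes and for 708 of the brain-low genes. Of the brain-low genes, 114 were at least 4-fold higher in liver than in muscle and 30 at least 4-fold higher in muscle than in liver.

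**Figure D1:**
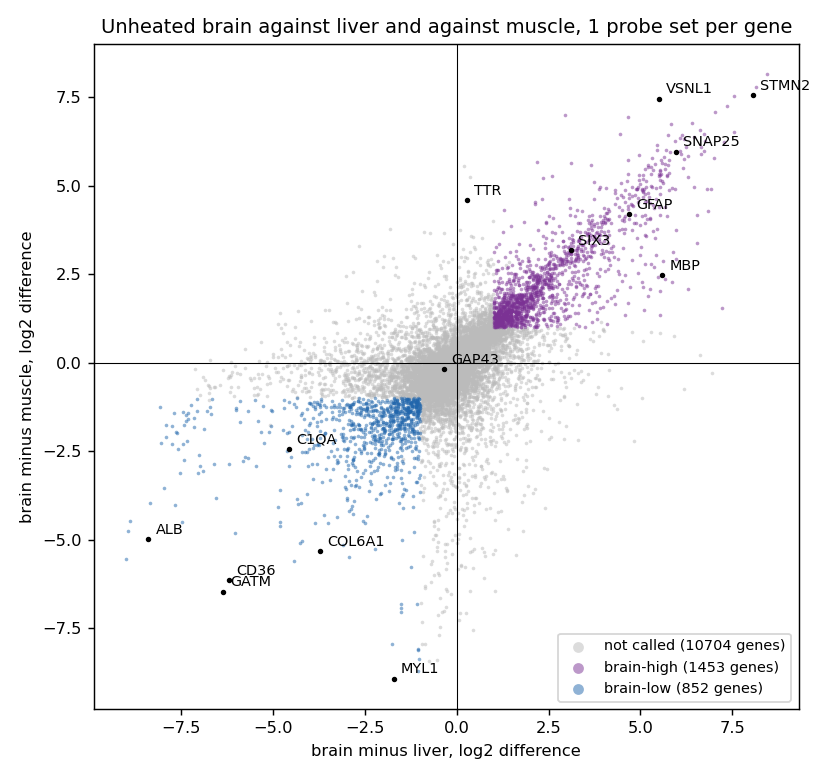
Each point is 1 of 13009 genes, by its log2 difference of unheated brain from liver (horizontal axis) and from muscle (vertical axis), on the log2(intensity + 16) scale. Brain-high genes (1453, purple) spread along the diagonal and include STMN2 and SNAP25, while brain-low genes (852, blue) include genes much higher in liver (ALB), in muscle (MYL1) or in both (GATM, CD36).

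The 3 marker genes are given in full, with log2 differences from liver first and from muscle second, here and below, and the larger of the 2 adjusted p-values. STMN2, a microtubule regulator of growing axons, read 12962, 13091 and 12161 in brain, 37.1, 28.2 and 31.0 in liver and 51.2, 49.7 and 54.7 in muscle (log2 differences +8.06 and +7.55, SE 0.12, larger adjusted p = 1.90e-12). SNAP25, a SNARE protein of the presynaptic membrane, read 4608, 5019.6 and 4531 in brain, 73.0, 51.6 and 55.4 in liver and 60, 60.9 and 59.8 in muscle (log2 differences +5.97 and +5.96, SE 0.13, larger adjusted p = 9.15e-12). SIX3, a homeobox factor of the anterior brain, read 962, 568 and 969 in brain, 76.0, 88.3 and 74.0 in liver and 75.6, 64.1 and 88.1 in muscle (log2 differences +3.12 and +3.17, SE 0.19, larger adjusted p = 4.44e-08). In all 3 the groups did not overlap, and liver and muscle values lay at or near background. For STMN2 the other probe set was brain-high too, as were 4 of the 6 others of SNAP25, while the remaining pair of SNAP25 probe sets read 24.8 and 9.74 on average in brain. SIX3 varied more among the brain arrays than the others, with brain array 2 well below arrays 1 and 3.

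The 12 genes that stood highest over both tissues joined peptides, membrane proteins and transporters of neurons and astrocytes. SST1, the gene of the peptide somatostatin, read 8433, 7608 and 7146 in brain, 5.48, 10.9 and 3.31 in liver and 7.80, 13.1 and 13.4 in muscle (log2 differences +8.43 and +8.14, SE 0.15, larger adjusted p = 3.63e-12). GPM6A, a neuronal membrane glycoprotein, read 5774, 5913 and 5538 in brain, 2.75, 4.17 and 6.63 in liver and 7.88, 11.9 and 10.7 in muscle (log2 differences +8.14 and +7.78, SE 0.12, larger adjusted p = 1.90e-12). SLC1A3, the glutamate transporter of astrocytes and radial glia, read 5141, 4978 and 4702 in brain, 9.95, 8.89 and 12.8 in liver and 9.67, 12.3 and 10.5 in muscle (log2 differences +7.55 and +7.53, SE 0.11, larger adjusted p = 1.90e-12). Every one of these 18 liver and muscle values was below 14, inside the range of the trp controls, so the sizes depend on the 16 added before the logarithm and give no exact fold. TAC1, the precursor of substance P, was less even in brain, at 5377, 4073 and 8433, against 17.4 to 22.0 over the 6 other arrays (log2 differences +7.36 and +7.25, SE 0.21, larger adjusted p = 5.73e-11).

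The remaining leaders followed in the same ranking. ELMOD1, a regulator of ARF-like GTPases, read 3393 to 3649.6 in brain and 6.17 to 17.5 elsewhere (+7.02 and +7.07). CACNG3, an AMPA receptor auxiliary subunit, read 4575 to 5758 against 29.3 to 39.4 (+6.63 and +6.57). NSG1, a neuronal endosomal protein, read 6664 to 7565 in brain, against 18.5 to 27.5 in liver and 47.5 to 79.3 in muscle (+7.56 and +6.52). In these 3 genes the 6 other arrays stayed under 80 while no brain array read below 3393. NEFM, a subunit of axonal neurofilaments, read 3183, 5099 and 5338 in brain, lowest on brain array 1, and 22.9 to 49.9 elsewhere (+6.74 and +6.45). FAIM2, a neuronal inhibitor of Fas signalling, read 4839 to 6091 against 31.9 to 54.4 (+6.4 and +6.75). SLC32A1, the vesicular GABA transporter, read 3501 to 4525 against 26.3 to 38.0 (+6.46 and +6.38). CADM2, a synaptic adhesion molecule, read 2936 to 3489 against 9.38 to 32.7 (+6.77 and +6.26). The 12 were picked for their distance from both tissues on these same arrays, so their wide separation follows from the choice. The largest adjusted p among them was 1.82e-10, which the same choice favours. The other probe sets of CACNG3 and SLC32A1 and both others of NEFM were not called.

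**Figure D2:**
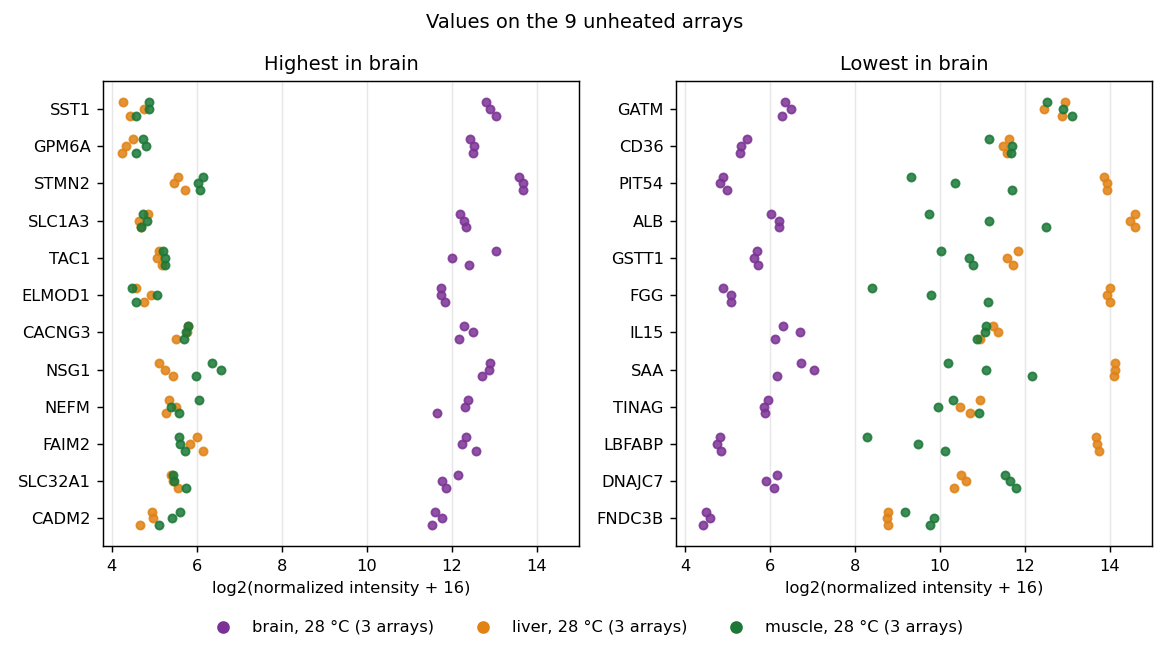
Each point is 1 unheated array, 3 per tissue, on a log2(normalized intensity + 16) axis, for the 12 brain-high genes (left) and 12 brain-low genes (right) with the largest smaller-of-2 difference. Brain points lie apart from all others in each row, as the rule required, and on the right ALB, PIT54, FGG, SAA and LBFABP spread widely over the 3 muscle arrays.

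Presynaptic genes were mostly brain-high. Of 13 measured neuron markers, 12 were brain-high, 0 brain-low and 1 not called (median log2 differences +5.31 from liver and +5.77 from muscle). Of 32 genes of vesicle release, 21 were brain-high, 0 brain-low and 11 not called (medians +3.43 and +3.60). SYT1, the calcium sensor of fast release, read 3993, 3454 and 3663 in brain and 24.7 to 37.7 elsewhere (+6.12 and +6.42, adjusted p = 6.03e-12). SNCB, the synuclein relative of presynaptic endings, read 9304, 8772 and 8649 in brain and 98.9 to 140.0 elsewhere (+6.12 and +5.89, adjusted p = 6.03e-12). Members that were not called included RIMS1, an active zone scaffold, at 2118 to 2416 in brain, against 2209.8 to 2315 in liver and 3045 to 4048 in muscle, and UNC13B, a vesicle priming factor (+0.34 and +0.21). RIMS1 has another probe set that was brain-high, averaging 874 in brain, 76.7 in liver and 81.6 in muscle, so its probe sets disagree. The neuron marker that was not called was GAP43, the growth-associated protein of axons, whose only probe set read 15.5, 17.3 and 15.8 in brain and 17.9 to 32.3 elsewhere, all within the trp range.

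Receptor genes split between clear calls and genes not called, and only some of the latter were near background. Of 26 genes of glutamate signalling, 13 were brain-high, 0 brain-low and 13 not called (medians +1.44 and +1.09), and 5 had a mean under 100 in all 3 tissues. GRIN1, the obligate NMDA receptor subunit, read 5077, 5025 and 4927 in brain and 40.7 to 71.5 elsewhere (+6.08 and +6.33, adjusted p = 1.24e-11). GRM3, a metabotropic glutamate receptor, read 2594 to 2772 against 16.8 to 22.5 (+6.17 and +6.33). GRIK3, a kainate receptor subunit, read 1129 to 1631 against 10.2 to 17.1 (+5.59 and +5.65). The kinase CAMK2A was not called on the probe set used here, at 2302 to 2711 in brain, against 859 to 1263 in liver and 1190.0 to 2173 in muscle, while both of its other probe sets were brain-high. CAMK2B, its partner subunit, was not called either (+0.83 and +0.47).

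For inhibition, 11 of 21 GABA and glycine genes were brain-high and 0 brain-low (medians +2.20 and +1.57), and 6 had a mean under 100 in all tissues. GAD1 and GAD2 encode the enzymes that make GABA from glutamate. GAD1 read 3643, 3915 and 3358 in brain and 21.5 to 59.1 elsewhere (+5.76 and +6.43, adjusted p = 1.65e-11), and GAD2 read 2318 to 2729.9 in brain against 32.3 to 46.6 (+5.40 and +5.59). Together with SLC32A1, which loads GABA into vesicles, transcripts for synthesis and loading of the transmitter were thus brain-high on the probe sets used. GPHN, the scaffold of inhibitory synapses that also serves molybdenum cofactor synthesis, was present throughout (2566 to 2704 in brain, 1013 to 1952 elsewhere) and not called. GABBR2, a subunit of the GABA-B receptor, was far above liver but under 2-fold above muscle (+3.99 and +0.93), at 331 to 564 in muscle. It passed the limit with the deposited scaling, with arrays scaled to 1 median, and without muscle array 2 or 3, and 3 of its 4 other probe sets were brain-high.

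Voltage-gated channels and their subunits were brain-high in 16 of 40 measured genes and brain-low in 2 (medians +1.22 and +0.75). KCNAB1, a potassium channel beta subunit, read 4334, 4282 and 4286 in brain, against 28.9 to 39.7 in liver and 114 to 139 in muscle (+6.45 and +4.95, adjusted p = 2.76e-11). SCN3B, a sodium channel beta subunit, read 2644 to 3036 against 202 to 242 (+3.63 and +3.55). CACNA2D1, a calcium channel subunit shared with skeletal muscle, read 2127 to 3405 in brain, against 61.3 to 67.1 in liver and 5266 to 5472 in muscle, so brain lay between the others (+5.04 and -1.01). Among the brain-low members, KCNMA1, the large-conductance calcium-activated potassium channel, read 447 to 509 in brain and 1040.5 to 1966 elsewhere (-1.78 and -1.34, adjusted p = 6.79e-05), and none of its 3 other probe sets gave that call. KCNA3 was brain-low from dim values (13.4 to 18.6 in brain, 58.2 to 80.3 elsewhere), a call lost with a pseudocount of 64. SCN2B was higher than in both tissues but under 2-fold above muscle (+1.57 and +0.79), a limit it passed with the deposited scaling, and 1 of its 2 other probe sets was brain-high (+1.82 and +1.28).

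Calcium and G protein signalling was brain-high in most of its measured genes. Of 43 genes, 30 were brain-high, 0 brain-low and 13 not called (medians +3.70 and +2.76). VSNL1, a neuronal calcium sensor, read 10824, 10479.8 and 10288 in brain, 273, 159 and 230.3 in liver and 45.9, 67.4 and 26.8 in muscle (+5.51 and +7.45, adjusted p = 1.48e-09). PRKCB, the beta isoform of protein kinase C, read 7065 to 7744 in brain, against 239 to 438 in liver and 58.1 to 79.0 in muscle (+4.46 and +6.46), and its relative PRKCA was not called (+1.15 and +0.80) except with the deposited scaling and on a dim set among its 6 others. NCS1, another neuronal calcium sensor, read 1972 to 2831 against 40.4 to 77.8 (+5.30 and +4.98). PPP3CA, the catalytic subunit of calcineurin, was high in brain but also in muscle, at 6752 to 7008 and 3692 to 4623, and was not called on the set used (+2.33 and +0.72). Of its 4 other probe sets 3 were brain-high, as was the mean over its probe sets.

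Of 22 neuropeptides and granule proteins, 14 were brain-high, 0 brain-low and 8 not called (medians +3.33 and +2.49). NPY, the appetite-stimulating neuropeptide Y, read 6459, 4351 and 6685 in brain, 23.4, 17.8 and 23.3 in liver and 37.4, 58.7 and 98.2 in muscle (log2 differences +7.26 and +6.22, SE 0.25, larger adjusted p = 9.89e-10). GRP, the gastrin-releasing peptide, read 4809, 5937 and 4183 in brain and 28.9 to 106 elsewhere (+6.65 and +6.09, adjusted p = 2.13e-09). PENK, the enkephalin precursor, was higher than in liver but not clearly higher than in muscle, where it read 1695, 1601 and 1946 beside 3045, 1800.1 and 5616 in brain (+5.52 and +0.84). PNOC, the nociceptin precursor, was higher in muscle (999, 1807 and 1755) than in brain (621, 352 and 647) and not called (+1.58 and -1.47). The brain and muscle ranges overlapped for PENK and lay apart for PNOC, and PENK was brain-high without brain array 2 and with the deposited scaling.

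Genes of the axon and its surface were often brain-high. Of 33 genes of the neuronal cytoskeleton, 21 were brain-high, 0 brain-low and 12 not called (medians +2.55 and +1.92). NEFL, the light neurofilament subunit, read 2195, 3229.5 and 3185 in brain and 27.6 to 39.0 elsewhere (+5.80 and +5.95, adjusted p = 3.10e-11). MARCKS, an actin-linked substrate of protein kinase C, was not called on the probe set used (-0.51 and -0.80) but brain-high on another, so its probe sets disagree. TPPP, a tubulin polymerization protein, was present in all 3 tissues and not called (1686 to 3018 in brain, 998 to 2345 elsewhere), while its other probe set was brain-high (+1.27 and +1.04). Of 58 guidance and adhesion genes, 32 were brain-high, 0 brain-low and 26 not called (medians +1.66 and +1.22). RTN1, a neuroendocrine reticulon, read 16463, 15841 and 16087 in brain, 109.7, 116 and 124 in liver and 398, 548 and 659 in muscle (+6.93 and +4.90, adjusted p = 1.79e-10). Its relative RTN4, the source of the axon growth inhibitor Nogo, had overlapping ranges in brain and muscle (8998 to 9939.6 and 8937 to 9889) and was lower in liver (3335 to 3589), with 1 of its 4 other probe sets brain-high. NRXN3, a presynaptic neurexin, read 3582 to 4195 against 57.5 to 111 (+5.61 and +5.06), and NEGR1, a growth regulator of the same surface, was not called on the set used (+0.39 and +1.15) but brain-high on its other probe set (+5.59 and +3.13).

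Forebrain transcription factors were brain-high in 20 of 28 measured genes and brain-low in 1 (medians +2.67 and +2.35). LMO3, a LIM-only cofactor, read 4078, 3997 and 4348 in brain and 34.2 to 66.6 elsewhere (+6.29 and +5.85, adjusted p = 8.72e-12). NEUROD6, a factor of excitatory pallial neurons, read 3185, 1905 and 2358 against 27.4 to 47.7 (+5.67 and +5.45, adjusted p = 1.79e-10). DLX6, a factor of inhibitory neurons from the subpallium, read 820.4, 631 and 1324 against 16.1 to 31.5 (+4.68 and +4.34, adjusted p = 7.07e-09). Factors of both neuron classes were therefore present in the dissected tissue. LMO4 and NR2F2 were expressed in all 3 tissues and were not called (+1.67 and +0.60; +0.98 and +1.18), and NR2F2 passed without liver array 1, with array weights and with the deposited scaling. CUX2, known for upper cortical layers in mammals, was brain-low from dim values (19.7 to 27.8 in brain, 82.8 to 135 elsewhere), a call lost with a pseudocount of 64.

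RNA-binding proteins gave fewer calls: of 35 measured, 8 were brain-high, 0 brain-low and 27 not called (medians +0.33 and +0.15). ELAVL4, a neuronal Hu protein, read 1493 to 1671 in brain and 28.1 to 48.2 elsewhere (+5.07 and +4.82, adjusted p = 2.24e-11). ELAVL2, its relative, read 1066, 1131 and 977 in brain, 13.5, 21.5 and 25.1 in liver, and 18, 21.0 and 645 in muscle (+4.91 and +3.51, adjusted p = 0.0032). On this probe set muscle array 3 stood apart from the other muscle arrays while staying below brain. The other probe sets of ELAVL2 averaged 16.9, 44.9, 19.5 and 9.58 in muscle, so none of them read near 645 on that array. NOVA1, a neuronal splicing regulator, read 2981 to 3428 in brain, against 83.0 to 93.7 in liver and 423 to 678 in muscle (+4.93 and +2.53). MBNL1, the muscleblind splicing factor, was not called (4269 to 4634 in brain, 6714 to 7034 in muscle), and MSI2 was not called (+2.12 and +0.95), although it passed with the deposited scaling, with arrays scaled to 1 median, and without brain array 3 or muscle array 3, and 1 of its 6 other probe sets was brain-high.

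Of 29 ion pumps and energy transporters, 15 were brain-high, 1 brain-low and 13 not called (medians +1.4 and +1.07). ATP2B2, a plasma membrane calcium pump, read 1148, 2061 and 1598 in brain and 27.1 to 65.5 elsewhere (+4.48 and +5.08, adjusted p = 2.56e-09). CKB, the brain-type creatine kinase, read 15146, 15941 and 15941 in brain, 2624, 3186 and 2401 in liver and 1954, 2729.9 and 1948 in muscle (+2.52 and +2.84, adjusted p = 1.53e-08). ATP6V1H, a subunit of the vesicular proton pump, read 1528 to 1744 against 155 to 346 (+2.41 and +2.72), while ATP6V1G1 of the same pump missed the 2-fold limit against muscle (+1.4 and +0.96). ATP2A2, a calcium pump of the endoplasmic reticulum, was high in muscle as well as in brain (+2.84 and -0.26). SLC16A1, the monocarboxylate transporter that carries lactate and ketone bodies, was the brain-low member, at 606, 499 and 515 in brain, 3647, 3193 and 3333 in liver and 2302, 2109 and 2781 in muscle (-2.62 and -2.11, adjusted p = 5.12e-08).

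Glial genes were represented alongside neurons. Of 17 astrocyte and radial glia markers, 11 were brain-high, 0 brain-low and 6 not called (medians +1.85 and +1.95). MLC1, an astrocyte membrane protein, read 1045 to 1215 in brain and 16.3 to 24.1 elsewhere (+5.05 and +4.90, adjusted p = 7.99e-12). GFAP, the astrocyte filament protein, read 1237, 1913 and 2563 in brain, lowest on array 1, and 55.6 to 89.2 elsewhere (+4.68 and +4.19, adjusted p = 7.00e-09). GLUL, glutamine synthetase, is shared with liver, where it also handles ammonia, and read 10102, 10136 and 10596 in brain, 10895, 8471 and 10061 in liver and 1979, 1782 and 2364 in muscle (+0.07 and +2.33). GJA1, a gap junction protein, was likewise near its liver level and far above muscle (+0.44 and +3.54).

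Of 14 oligodendrocyte and myelin markers, 7 were brain-high, 0 brain-low and 7 not called (medians +1.56 and +1.71). MBP, myelin basic protein, read 10266, 12496 and 14278 in brain, 239.7 ± 22.5 (mean ± SD, n = 3) in liver and 2172, 1733 and 2811 in muscle (log2 differences +5.59 and +2.47, SE 0.18, larger adjusted p = 1.70e-07). OLIG2, the lineage factor of oligodendrocytes, read 2279 to 2896 against 168 to 228 (+3.75 and +3.58), and GPM6B, a proteolipid relative, read 3109.7 to 3718 in brain, against 47.1 to 61.3 in liver and 426 to 499 in muscle (+5.6 and +2.86). For MBP 1 of the other probe sets was brain-high and 1 not called, and both read higher in liver than in muscle, against the order of the set used. SOX10, the factor of oligodendrocytes and of the Schwann cells that wrap peripheral nerves, read 489.8, 456 and 707 in brain and 224, 219 and 417 in muscle and was not called (+2.88 and +0.94), but was brain-high without brain array 1 or 2 or muscle array 3, with array weights, and with the deposited or median scaling. Its other probe set was brain-high (+1.85 and +1.89), as was the mean over its probe sets. UGT8, an enzyme of myelin lipid synthesis, overlapped between brain and liver (2408, 2281 and 4176 and 2286, 1886 and 1877).

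**Figure D3:**
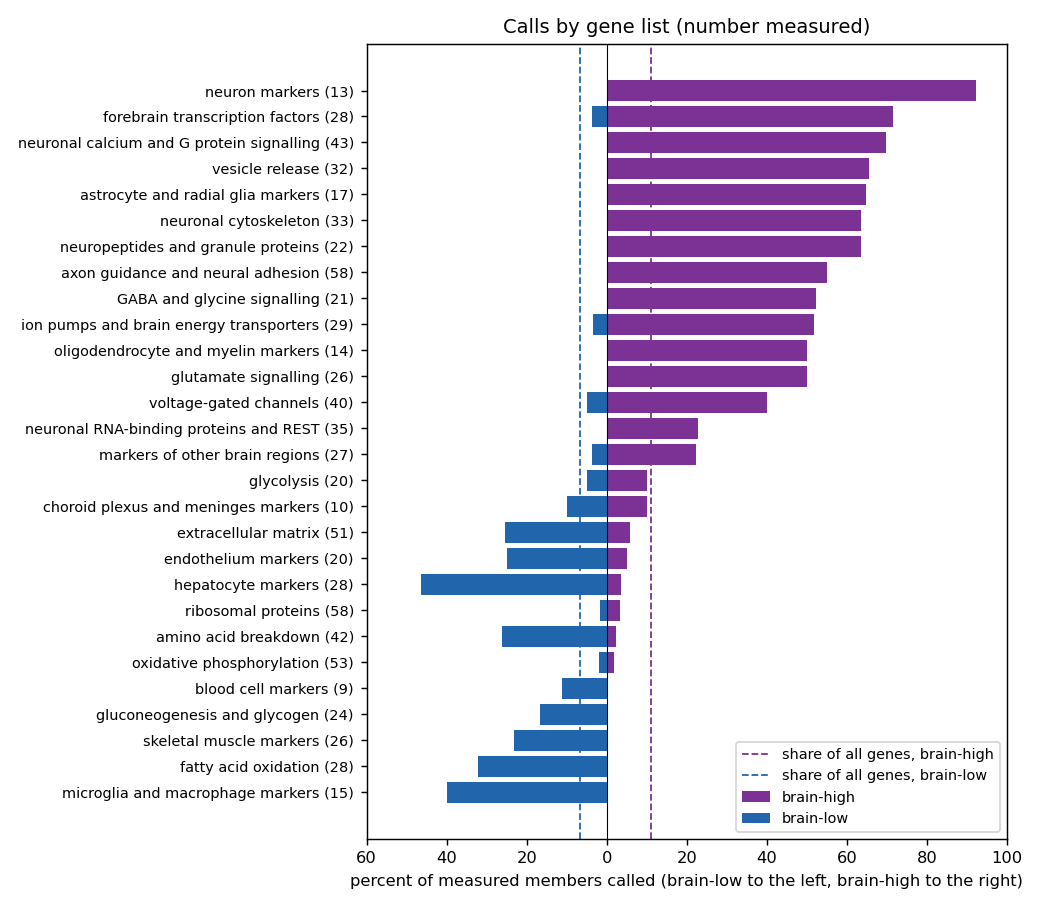
Bars give the percent of the measured members of each of 28 gene lists called brain-high (to the right) or brain-low (to the left), with the number measured in brackets and dashed lines at the shares over all genes (11.2% and 6.55%). Neuron markers reach 12 of 13, and brain-low calls gather in the lists of hepatocyte, macrophage, fatty acid oxidation, amino acid and matrix genes.

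Some macrophage and endothelial transcripts were lower in brain. Of 15 microglia and macrophage markers, 0 were brain-high, 6 brain-low and 9 not called (medians -2.69 and -0.81). Their summed level was 10053 to 13602 on the brain arrays, 56260.5 to 67649.8 in liver and 21437 to 32533 in muscle. C1QA, a complement chain made by macrophages, read 241, 261 and 229 in brain, 5141, 7053 and 6331 in liver and 1071, 2004 and 1241 in muscle (-4.57 and -2.44, adjusted p = 7.71e-07). Its partner chain C1QB (-4.13 and -2.53) and the lysosomal protease CTSS (-4.08 and -2.16) followed the same order. CD74, a chaperone of class II antigen presentation, was under 2-fold lower than muscle (-1.05 and -0.52). So was CSF1R, the receptor that macrophages need for survival, on the probe set used (-1.65 and -0.70). Its other probe sets were not called and differed from muscle by -0.15, +0.50 and +0.11, so they disagree on that direction.

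Of 20 endothelium markers, 1 was brain-high and 5 brain-low (medians -0.10 and -1.0, the former changing sign under other scalings). The brain-high member was SLC2A1, the glucose transporter of the blood-brain barrier, at 1692, 1851 and 1855 in brain, 260.0, 299 and 258 in liver and 840.4, 594 and 621 in muscle (+2.66 and +1.39, adjusted p = 6.04e-06). CDH5, the cadherin of endothelial junctions, was brain-low (305 to 505 in brain, 1373 to 2661 elsewhere), and so were PECAM1 (-1.45 and -1.87) and RAMP2, a receptor accessory protein (-1.37 and -1.57). SOX17 and VWF were highest in muscle and not called (+2.34 and -1.36; +0.19 and -1.82). Among 9 blood cell markers (medians -0.65 and -0.16), the dim HBZ was the only call (26.5 to 29.7 in brain, 81.1 to 136 elsewhere), and was lost with a pseudocount of 64. HBA1, the adult alpha globin, read 10596, 9738 and 15339 in brain, 9044, 14419.7 and 15146 in liver and 5152, 6151 and 11657 in muscle, so red cell RNA was present on all arrays with overlapping ranges.

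Markers of other brain regions were used to see how the dissected tissue was bounded. Of 27 measured, 6 were brain-high, 1 brain-low and 20 not called, and 11 had a mean under 100 in all tissues (medians -0.10 and -0.13, the sign against liver changing under another scaling). CALB1, a calcium buffer prominent in Purkinje cells but also present in forebrain neurons, read 367 to 522 in brain and 7.95 to 18.1 elsewhere (+3.90 and +4.13), and CBLN1, prominent in cerebellar granule cells, 319.9 to 589 against 20.8 to 66.9 (+3.59 and +2.67). AVP, the gene of the hypothalamic peptide vasotocin in birds, read 773, 242 and 923 in brain and 57.9 to 67.7 elsewhere (+2.89 and +2.92, adjusted p = 2.16e-05). CBLN3 and CRH of the same list were brain-high too, with smaller differences of +1.79 and +1.30. The hypothalamic peptide HCRT read 157 to 183 in brain and 167 to 204 elsewhere and did not stand out. PRL, the pituitary hormone prolactin, read 124 to 157 against 51.9 to 71.3 and missed the 2-fold limit against muscle (+1.07 and +0.83). HOXA5, a homeobox factor, was brain-low (30.0, 32.1 and 23.9 in brain, 151 to 351 elsewhere).

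Choroid plexus and meningeal genes gave 1 brain-high and 1 brain-low call among 10 measured (medians +0.04 and -0.12, both changing sign under another scaling). IGFBP2, an IGF-binding protein, was brain-high (3324, 3290.1 and 3393 in brain, 164, 172 and 112 in liver, 502, 1403 and 694 in muscle). TTR, the thyroid hormone carrier secreted by choroid plexus and liver, read 21726, 21726 and 11336 in brain, 14419.7, 14044 and 14639 in liver and 1509.8, 613 and 388 in muscle (+0.28 and +4.59). TTR was thus near the top of the intensity range in brain, and lower on brain array 3. PTGDS, a prostaglandin synthase of the meninges, was higher in brain (10414 to 14997) than in liver (6324 to 8603) by less than 2-fold. SLC13A4, a sulfate transporter, was brain-low on the dim probe set used (33.7 to 43.9 in brain, 89.3 to 135 elsewhere) but brain-high on its other probe set, averaging 912 in brain, 40.3 in liver and 62.6 in muscle. Its brain-low call was lost without brain array 2 or 3 or liver array 1, and with the deposited or trimmed mean scaling.

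Some brain-high genes differed among the brain arrays themselves. Of 1017 brain-high genes that have a gene name and a mean brain intensity of at least 8 on the log2 scale, the median SD among brain arrays was 0.13 on the log2 scale, and in 18 the brain arrays lay at least 2-fold apart. Brain array 3 was farthest from the median in 9 of these 18, array 1 in 5 and array 2 in 4. IAPP, the peptide amylin, read 150.2, 219.7 and 1059 on the brain arrays (SD 1.43 on the log2 scale) and 8.86 to 22.7 elsewhere (+3.27 and +3.72, adjusted p = 1.08e-04). TMEM61, a membrane protein, read 275, 479.7 and 1607 against 52.3 to 108, and SST7, the gene of the other avian somatostatin precursor, 594, 508 and 2061 against 57.9 to 77.5 (+3.45 and +3.32, adjusted p = 1.33e-05). APOD, an apolipoprotein of glia, read 386, 369 and 911 against 179 to 229, and its call was lost without brain array 3. In these 4 genes array 3 was the highest. AVP was lowest on array 2. TF, the iron carrier transferrin that liver secretes and oligodendrocytes and choroid plexus also make, was not called and read 15841, 8603 and 1689 on brain arrays 1, 2 and 3, against 21726, 21726 and 21726 in liver. The summed level of the choroid plexus list was 40695, 38432 and 25564 on the same arrays, so TF and that sum were both lowest on array 3. The sum includes TTR, itself lowest on array 3 and also high in liver, where the sum was 21626 to 23539. The part of TF and of that list in the spread of other genes was not tested.

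**Figure D4:**
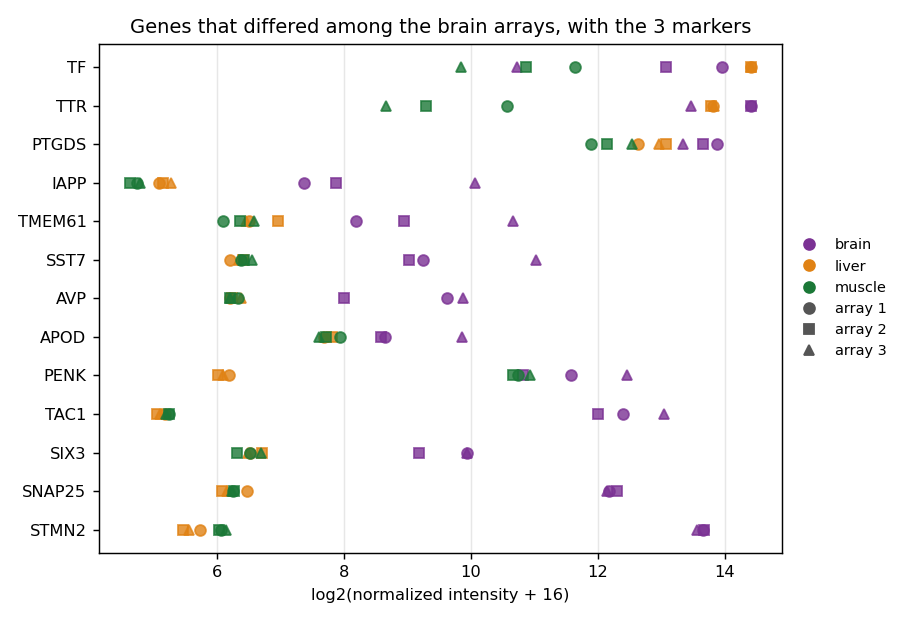
Each point is 1 unheated array on a log2(normalized intensity + 16) axis, with colour for tissue and shape for array number. SNAP25 and STMN2 coincide on the 3 brain arrays, IAPP, TMEM61, SST7 and APOD are highest on brain array 3 (triangles), and TF and TTR are lowest there.

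On the brain-low side, a gene had to be higher in both liver and muscle, so sharing between these tissues was set by the rule. Among the leaders, GATM, CD36 and IL15 had similar levels in both, while ALB, PIT54, FGG, SAA and LBFABP, given further below, were far higher in liver. GATM, the enzyme of the initial step of creatine synthesis, read 61.7, 74.1 and 65.8 in brain, 7424, 5588 and 7847 in liver and 8856, 7648 and 5898 in muscle (log2 differences -6.38 and -6.47, SE 0.17, larger adjusted p = 3.03e-11). GAMT, which completes that pathway, read 364, 375 and 482 in brain, 6680.4, 6324 and 8257 in liver and 4634, 6223 and 5683 in muscle (log2 differences -4.07 and -3.71, SE 0.15, larger adjusted p = 1.20e-09). Both enzymes of creatine synthesis were brain-low, whereas CKB, which uses creatine, was brain-high. CD36, a fatty acid translocase, read 23.4, 24.1 and 28.3 in brain, 3041, 2834 and 3139.6 in liver and 3256, 3295 and 2265 in muscle (log2 differences -6.19 and -6.14, SE 0.15, larger adjusted p = 2.10e-11). IL15, a cytokine that muscle secretes, read 53.7, 88.6 and 62.7 in brain, 1941, 2624 and 2422 in liver and 1855, 2113 and 2145 in muscle (log2 differences -4.81 and -4.62, SE 0.17, larger adjusted p = 5.06e-10). GATM and CD36 were close to background in brain, and GAMT was not.

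Other leaders also had lower brain values than any liver or muscle array, as the rule required. GSTT1, a glutathione transferase, read 33.5 to 36.5 in brain, against 3060.0 to 3614 in liver and 1023 to 1741 in muscle (-6.03 and -4.81). TINAG, a basement membrane protein, read 42.5 to 45.6 against 983 to 1944 (-4.81 and -4.50). FNDC3B, a fibronectin type III domain protein, read 5.59 to 7.92 against 418 to 920.5 (-4.26 and -5.10), and its 2 other probe sets were not called. DNAJC7, a cochaperone, read 43.9 to 55.6 in brain, against 1267 to 1559 in liver and 2960.0 to 3547 in muscle (-4.42 and -5.61). Its other probe set was brain-high, averaging 537, 41.8 and 224, so no direction can be given for the gene. Over all genes with several probe sets, 419 of 846 brain-high genes and 130 of 496 brain-low genes had another probe set with the same call, and 20 and 31 had one with the opposite call. Among other genes described here, DLX6, GAD2, CALB1, HOXA5, PPP1R3B and POSTN had no second probe set with the same call.

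Of the 12 leading brain-low genes, 5 encode proteins that hepatocytes secrete or hold, and their muscle values varied with the hepatocyte markers on the muscle arrays. ALB, serum albumin, read 57.7, 58.4 and 49.1 in brain, 24444, 22876 and 24444 in liver and 5723, 2272 and 845 in muscle (log2 differences -8.40 and -4.98, SE 0.48, larger adjusted p = 2.38e-06). FGG, a fibrinogen chain, read 18.1, 17.6 and 13.9 in brain, 16463, 15714 and 16293 in liver and 2228, 874 and 321 in muscle (log2 differences -8.96 and -4.75, SE 0.48, larger adjusted p = 3.70e-06). PIT54, a hemoglobin-binding plasma protein of birds, read 15.7, 12.1 and 14.0 in brain, 15714, 15511 and 14876 in liver and 3286, 1286 and 620.3 in muscle (log2 differences -9.01 and -5.55, SE 0.42, larger adjusted p = 2.95e-07). On muscle arrays 1, 2 and 3 these fell in the order of the hepatocyte marker level of 5.0%, 2.43% and 1.37%. ALB, FGG and PIT54 are themselves on that marker list, so for them the match is partly a comparison with themselves. SAA and LBFABP, given next, are not on the list. The part of liver RNA in the muscle values was not tested. SAA, serum amyloid A (4575, 2149 and 1158 in muscle, 56.0, 115 and 89.7 in brain), and LBFABP, the liver basic fatty acid-binding protein (1102, 699 and 297 in muscle, 12.8, 11.2 and 12.5 in brain), showed the same order. Of 43 brain-low genes at least 16-fold higher in liver than in muscle, 40 were highest on muscle array 1. In heated birds 4 of these 43 genes were brain-low. Without muscle array 1 the count of all brain-low genes was 872, and leaving out any single array gave 829 to 878. That count does not measure the part of liver RNA, since muscle arrays 2 and 3 remained in it. Of 28 hepatocyte markers, 1 was brain-high, 13 brain-low and 14 not called (medians -6.60 and -0.86). Their summed level was 12736 to 27358 in brain, 10589 to 32582 in muscle and 277053 to 300693 in liver. The brain sum included APOA1, given below, and TF, which fell in the same order over the brain arrays as the sum. The median marker level in brain was 0.610 to 0.670% of that in liver. The brain-high member was ARG2, the mitochondrial arginase (814 to 994 in brain, against 75.3 to 130 in liver, 16.7 to 22.1 in muscle), and neither of its 2 other probe sets was called brain-high. APOA1, the main protein of high-density lipoprotein, read 6857, 6281 and 5304 in brain and 7458, 10350.4 and 4777 in muscle, below liver (16852 to 18873).

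Fatty acid oxidation genes were brain-low in 9 of 28 and brain-high in 0 (medians -1.31 and -1.11). ECI1, an isomerase for unsaturated fatty acids, read 472, 432 and 453 in brain, 3161, 2693 and 3074 in liver and 2528, 2352 and 2654 in muscle (log2 differences -2.67 and -2.43, SE 0.11, larger adjusted p = 3.23e-09). PDK4, which restrains pyruvate oxidation, read 143, 161 and 94.4 in brain, 2483, 255 and 739 in liver and 3643, 1599 and 4329 in muscle (log2 differences -2.45 and -4.34, SE 0.63, larger adjusted p = 0.0046), with a wide spread among the liver arrays. FABP3, the heart-type fatty acid-binding protein, lay between the tissues at 4857 to 5465 in brain, against 1061 to 2128 in liver and 11799 to 13344 in muscle (+1.88 and -1.32). SLC22A5, the carnitine transporter, was not called (+0.32 and +0.94). Of 42 genes of amino acid breakdown, 1 was brain-high, 11 brain-low and 30 not called (medians -1.22 and -0.65). ALDH7A1 of lysine breakdown read 1341 to 1471 in brain and 4338 to 6880.3 elsewhere (-2.18 and -1.77, adjusted p = 4.20e-08), and OAT, ornithine aminotransferase, was the brain-high member (+1.27 and +1.15), though its other probe set was not called and the call was lost with a pseudocount of 64. The aminotransferases GOT1 and GOT2, which serve the malate-aspartate shuttle, were not called (+0.31 and -0.57; -0.01 and -0.58).

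Glycogen and gluconeogenesis genes were brain-low in 4 of 24 (medians -0.67 and -0.62). PPP1R3B and PPP1R3C target a phosphatase to glycogen. PPP1R3B read 255.8, 218 and 226 in brain, 3663, 3373 and 4048 in liver and 1012, 1357 and 1343 in muscle (log2 differences -3.89 and -2.32, SE 0.14, larger adjusted p = 4.77e-08). PPP1R3C read 54.1 to 74.0 in brain, against 229 to 349.5 in liver and 558 to 1384 in muscle (-1.94 and -3.46). FBP1, the liver fructose bisphosphatase, read 62.9, 65.6 and 70.1 in brain, 11980.5, 11399.5 and 11980.5 in liver and 565, 246 and 143 in muscle, and its muscle values kept the order of the hepatocyte markers. In a fit over all 18 arrays its smaller difference was -1.83, against -1.82 here, and the adjusted p 0.054 missed the threshold. GYG1, which primes glycogen, and PHKG1, a phosphorylase kinase subunit, were far higher in muscle and not called against liver (-0.08 and -2.64; -0.45 and -2.93).

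Matrix genes were more often brain-low than brain-high, and brain-high calls stayed below their share over all genes, 11.2%. Of 51 measured, 13 were brain-low, 3 brain-high and 35 not called (medians -0.24 and -1.90). COL6A1, a chain of collagen VI, read 182, 142 and 109 in brain, 2298, 2080.1 and 1837 in liver and 5795, 7800.4 and 5484 in muscle (log2 differences -3.72 and -5.32, SE 0.19, larger adjusted p = 6.12e-09). POSTN, periostin, read 73.0 to 91.1 in brain, against 569 to 874 in liver and 2777 to 7336 in muscle (-2.93 and -5.50), and TGFBI 141 to 166 against 1009 to 2311 (-2.68 and -3.50). The 3 brain-high members are matrix components of neural tissue: NCAN, the proteoglycan neurocan, read 4786, 3090.5 and 3072 in brain and 57.5 to 101 elsewhere (+5.12 and +5.46, adjusted p = 3.87e-10), PTPRZ1, a receptor-type proteoglycan, read 1927 to 2374 against 5.85 to 116, and HAPLN1, a hyaluronan link protein, 121 to 224 against 22.1 to 52.4. The list also holds BCAN, ACAN, VCAN, HAPLN2 and HAPLN4, which were not among the brain-high calls. SPARC lay between liver and muscle (+1.18 and -0.89), and TIMP2 was not called (+0.39 and +0.32).

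Skeletal muscle markers met the brain-low rule in 6 of 26 (medians -0.42 and -6.25). MYL1, the fast myosin light chain, read 23.0, 23.2 and 16.1 in brain, 113, 138 and 71.8 in liver and 17423, 17904 and 17904 in muscle (-1.71 and -8.92), a call lost with a pseudocount of 64. TNNT3, fast troponin T, read 56.4 to 74.8 in brain, against 237 to 327 in liver and 19448 to 21726 in muscle (-1.77 and -7.94). TPM2, a tropomyosin with forms outside muscle, read 220.0 to 269 in brain and 1777 to 3738 elsewhere (-3.02 and -3.58). MYBPC2 was above liver and far below muscle (+2.40 and -4.10), and TPM1 was near the liver level (+0.16 and -4.30).

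Genes of oxidative phosphorylation and of the ribosome gave few calls. Glycolysis genes were called at about the shares over all genes, 11.2% brain-high and 6.55% brain-low. Of 20 glycolysis genes, 2 were brain-high, 1 brain-low and 17 not called (medians +0.23 and -0.32, the sign against liver changing under another scaling). The brain-high pair were isoenzymes known from neural tissue: ENO2, the neuronal enolase, read 7053, 5688 and 6857 in brain, 255, 261 and 215 in liver and 82.3, 125 and 118 in muscle (log2 differences +4.66 and +5.73, SE 0.16, larger adjusted p = 2.77e-10), and ALDOC, the brain aldolase, read 17016, 17758 and 16293 in brain, 4166, 6038 and 4103 in liver and 6203, 7397 and 6834 in muscle (log2 differences +1.85 and +1.32, SE 0.13, larger adjusted p = 3.46e-06). LDHA, the lactate dehydrogenase subunit of fast muscle, was brain-low at 1446, 1387 and 1374 in brain, 5015, 4588 and 4531 in liver and 11336, 9402 and 7761 in muscle (log2 differences -1.74 and -2.73, SE 0.12, larger adjusted p = 1.46e-07). The common isoenzyme ENO1 read 13625 to 15069 in brain, against 13455 to 14997 in liver and 8085 to 11029 in muscle and was not called, nor was GAPDH (+0.41 and -0.41). The ALDOC call was lost when arrays were scaled to a common trimmed mean.

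Of 53 genes of oxidative phosphorylation, 1 was brain-high, 1 brain-low and 51 not called (medians +0.30 and -0.48, the sign against liver changing under another scaling). COX8A of cytochrome c oxidase read 5310.0 to 5472 in brain, against 2444 to 2991 in liver and 917 to 1324 in muscle (+1.02 and +2.30), at the 2-fold limit, and its call was lost under all 3 other scalings and without liver array 1 or 3. SDHD of complex II was brain-low (72.6 to 105 in brain, 329.6 to 717 elsewhere), but its other probe set was not. NDUFA4 and COX4I1 were abundant in all 3 tissues and not called (+0.80 and -0.10; +0.40 and -0.25). Of 58 ribosomal protein genes, 2 were brain-high and 1 brain-low (medians +0.09 and -0.01, the sign against liver changing under another scaling), and the calls of RPL27 (+1.65 and +1.84), RPL35A (+1.00 and +1.70) and RPLP1 (-1.17 and -1.01) came from a probe set of the gene while its other probe sets were not called. The calls of RPL35A and RPLP1 were at the 2-fold limit and were lost without single arrays (brain 1, brain 3, liver 1 or liver 3 for RPL35A; brain 2, muscle 2 or muscle 3 for RPLP1), and that of RPLP1 under all 3 other scalings. The abundant RPS3A and RPL38 differed by less than 2-fold (+0.36 and +0.22; +0.44 and +0.31).

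The same rule was applied to the 9 heated arrays, which the calls above did not use. There 1450 genes were brain-high (11.1%) and 880 brain-low (6.76%). Of the 1453 genes brain-high at 28 °C, 1274 (87.7%) were brain-high in heated birds too, which is 87.9% of the heated calls, and 1451 had both differences above 0. Of the 852 brain-low genes, 679 (79.7%) were brain-low in heated birds, 77.2% of the heated calls, and 849 had both differences below 0. No gene turned from one call to the other. Among the lists, all 12 brain-high neuron markers and all 30 brain-high calcium and G protein genes were called again. Of the 13 brain-low hepatocyte markers, 0 were called again, and of the 4 brain-low glycogen and gluconeogenesis genes 0. Of the 6 brain-low skeletal muscle markers, 2 were called again. All 9 brain-low genes of fatty acid oxidation and all 6 brain-low microglia and macrophage markers were called again. In heated birds 15 of 28 fatty acid oxidation genes and 21 of 51 matrix genes were brain-low, against 9 and 13 at 28 °C. On the heated brain arrays the hepatocyte marker level was 10.1%, 0.897% and 1.55% of that in heated liver, and on the heated muscle arrays 4.05 to 30.4%. Over the neuron markers the level was 1.08 to 1.98% of brain in heated liver and 1.38 to 3.66% in heated muscle. The part of these marker transcripts in the calls not repeated in heated birds was not tested.

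The change in the brain difference between heated and unheated birds was tested over the 18 arrays, with 45 of 13009 genes past an adjusted p of 0.05 (0.346%). Among the 160 genes chosen for description, SIX3 and PPP1R3B passed. SIX3 read 962, 568 and 969 on the unheated and 351, 271 and 336 on the heated brain arrays, so the groups did not overlap, and its brain difference changed by -1.30 on the log2 scale in heated birds (SE 0.21, adjusted p = 0.014). PPP1R3B stayed at 218 to 255.8 and 215 to 259 in brain, while liver read 1861, 1029.8 and 1206 and muscle 466, 499 and 468 in heated birds. The unheated values of this gene given above lay higher in both tissues.

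**Figure D5:**
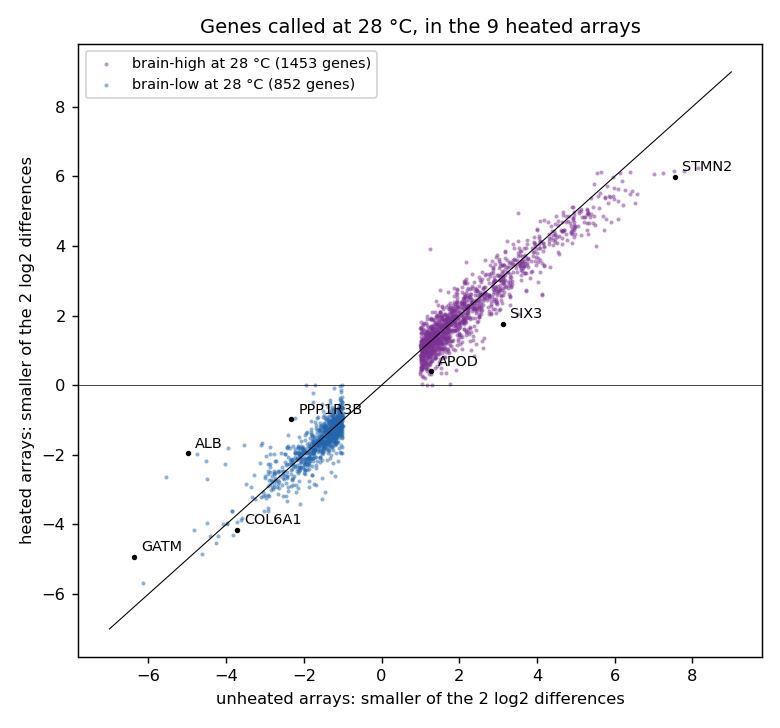
Each point is a gene called at 28 °C, by the smaller of its log2 differences from liver and muscle on the 9 unheated arrays (horizontal axis) and on the 9 heated arrays (vertical axis, 0 where the differences have opposite signs). Points follow the line of equality, with SIX3, ALB and PPP1R3B nearer to 0 in heated birds.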

How the data were processed

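Total RNA was hybridised as biotin-labelled cRNA to Affymetrix chicken arrays. The deposited values are probe set intensities made by the authors with GCOS 1.4, per the submitters' processing notes, and their scaling is not given in the sources used here.

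For each time point the 9 arrays were quantile normalized (limma 3.58.1, R 4.3.3) and log2(intensity + 16) was fitted per tissue by limma with an intensity trend. P-values were adjusted by Benjamini-Hochberg over all 38439 probe sets (96 control probe sets left out) in each contrast. A gene took its probe set of highest mean, with cross-matching sets used only where no other existed: 27168 probe sets had 1 symbol, 177 several and 11094 none. The number of arrays limits the precision.

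Genes named are the 3 markers, the 12 leading genes in each direction and the 5 brain-high genes most variable among brain arrays. From each list they add the leading 3 called members per direction and the 2 uncalled members with the highest brain mean. Leading and variable genes needed a mean intensity of at least 256, in brain for brain-high genes and in both other tissues for brain-low genes. LOC and clone names were left out of these rankings. The comparison, markers and lists were chosen with earlier results of these data known. The fit was tested on simulated data. Replicates are arrays that the labels call biological, so p-values measure the spread between these arrays. Alternatives covered scaling, pseudocount, dim probe sets, the fold, probe set choice, array weights, a replicate block and each array left out.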

Additional observations from a re-analysis of the deposited data

Results flagged for a closer look

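Among the genes named, 2 had a brain difference from the mean of liver and muscle that changed between unheated and heated birds, by limma's test of that change over 18 arrays with Benjamini-Hochberg adjustment. For SIX3 the change was -1.302 on the log2 scale (SE 0.21, adjusted p = 0.014), with -1.35 in brain and -0.04 in the other tissues, and all 3 heated brain arrays read below all 3 unheated ones. For PPP1R3B the change was 1.404 (adjusted p = 0.011), with -0.03 in brain and -1.43 in the other tissues. There all 6 heated arrays read below the unheated arrays of the same tissue. For both genes the array readings compared come from unheated and heated arrays normalized apart.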

How the results depend on the processing

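With 4-fold required there were 599 brain-high and 198 brain-low genes (1469 and 363 probe sets), 535 and 140 of them called in heated birds too. With no fold required there were 2735 and 2989 genes (7936 and 8219 probe sets), 2347 and 2248 called in both. Keeping probe sets above the 75th percentile left fewer genes to test and gave 545 and 552 genes (1032 and 904 probe sets), 473 and 433 called in both, and a filter at the median gave 2258 brain-high probe sets. A pseudocount of 64 gave 1059 brain-low probe sets. A single contrast against the mean of liver and muscle gave 1447 brain-low genes (2957 probe sets), 1163 called in both. The mean over all probe sets of a gene gave 562 brain-low genes, 440 called in both, and turned SLC13A4 to 0.8275, the cause being its disagreeing probe sets. Leaving out each array in turn gave 1434 to 1472 brain-high genes (3886 to 3962 probe sets) and 829 to 878 brain-low genes (1705 to 1793 probe sets), with 1260 to 1282 and 664 to 684 called in both. Of 105 calls on named genes, 100 held without each single array, and APOD, COX8A, RPL35A, RPLP1 and SLC13A4 did not. Over all alternatives, differences of named genes stayed on their side of the call in 3649 cases, lost a call in 67 and gained one in 60.

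Arrays of different tissues share replicate numbers, but the labels tie no number to a bird. Deviations of same-numbered arrays correlated at 0.014 to 0.455 (8 of 9 pairs over 0.1), other pairs at -0.404 to 0.251. With the replicate number as a block there were 1454 brain-high and 852 brain-low genes (3941 and 1746 probe sets).

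Values within the range of the trp controls set no exact fold, and probe sets of 1 gene often disagreed. With 3 arrays per tissue and no bird behind an array known, variation among birds, and between the sexes, was not measured.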
